A study of Ovis aries with 12 samples.

Results

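The genes of the cytosolic ribosome's own proteins were followed in sheep embryos (Ovis aries). They were the entries whose table symbol has the form RPL, RPLP or RPS and a number, with or without an A, X or L, or is RPSA; ribosomal protein S6 kinase genes were left out. The rule found 26 genes among the 26247 in the table, 13 of the large and 13 of the small ribosomal subunit. RNA came from Hulunbuir Short-tail Sheep (the experimental breed) and from the Ujumqin sheep that served as controls, both described as Mongolian sheep, at day 16 and day 25 of embryo age. Each of the 4 groups of breed and age had 3 libraries. Embryos of all groups were taken apart with enzymes before RNA was isolated and sequenced in bulk, and no allele, transgene or drug treatment is named in the labels. The labels do not say that a group's 3 libraries stem from different embryos or ewes; p-values then measure only how far these samples spread, which may be technical.

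A ribosome is built of a small subunit, which reads the messenger RNA and holds the decoding site, and a large subunit, which joins amino acids into a chain. Each subunit is a scaffold of ribosomal RNA covered by many different small proteins, and the subunits are assembled in the nucleolus. Their messenger RNAs are among the most abundant of growing cells and carry a shared terminal oligopyrimidine (TOP) start, through which growth signals such as mTOR set how much of them is translated.

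Of the 26 genes, 24 passed the filter of at least 1 FPKM (fragments per kilobase of gene, scaled to library size, as deposited) in at least 3 of the 12 libraries. RPL10L, a retrogene relative of RPL10, had 0 counts in all 12 libraries, where 3 counts would be 0.0541 to 0.0985 CPM (counts scaled to library size). RPL3L, the muscle relative of RPL3, had between 0 and 19 counts in a library and was not tested. The table's symbols therefore covered only 22 of the 79 ribosomal proteins listed for a mammalian ribosome. RefSeq gene numbers or fusion names identified 41 further ribosomal protein genes, which brought the listed proteins covered to 60; these are reported beside the 26 as a second set that the rule did not choose. Another 57 entries without a symbol are described as ribosomal proteins, 48 of them without an intron, and cannot be told from processed copies here.

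Totals per library were 43131962 to 55455815 gene counts at day 16 and 30464606 to 39643588 at day 25. The spread between replicates, as edgeR's common biological coefficient of variation, was 43.8% at day 16 and 18.1% at day 25, so the same difference is measured less precisely at day 16. Because short genes with many near-identical copies can lose or gain reads at alignment, and because neither the aligner nor the use of strand in counting is given in the sources used here, single ribosomal protein values carry that uncertainty. Unnamed entries are described as the same protein for RPSA (1), RPL23A (2), RPS10 (1) and RPS25 (1), with a summed mean of 185 to 212 FPKM against 2521 to 4837 for the genes themselves. By position 8 of the 26 genes overlap another entry, mostly small RNAs in their introns, and only RPS2 overlaps one on the other strand.

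Among the most abundant were RPL23A, which lines the exit of the nascent chain, with a mean of 4837 FPKM over the 12 libraries, and RPS2, at the messenger RNA entry of the small subunit, with 4528 FPKM. At the low end, RPS26 had 2.80 FPKM, the RPL26 relative RPL26L1 89.1 FPKM, the RPS27 relative RPS27L 125 FPKM and RPL22 1686 FPKM. The entry named RPS26 (Oar_v3.1, chr3:36864246-36864593, minus strand) has no intron and 11 to 98 counts in a library, far under its fellow subunit proteins. The genes between RPL18 and RPL29 in the order of means lay between 1709 and 3037 FPKM. RPL22, the relatives RPS27L and RPL26L1 and the intronless RPS26 entry stood below this band.

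**Figure D1:**
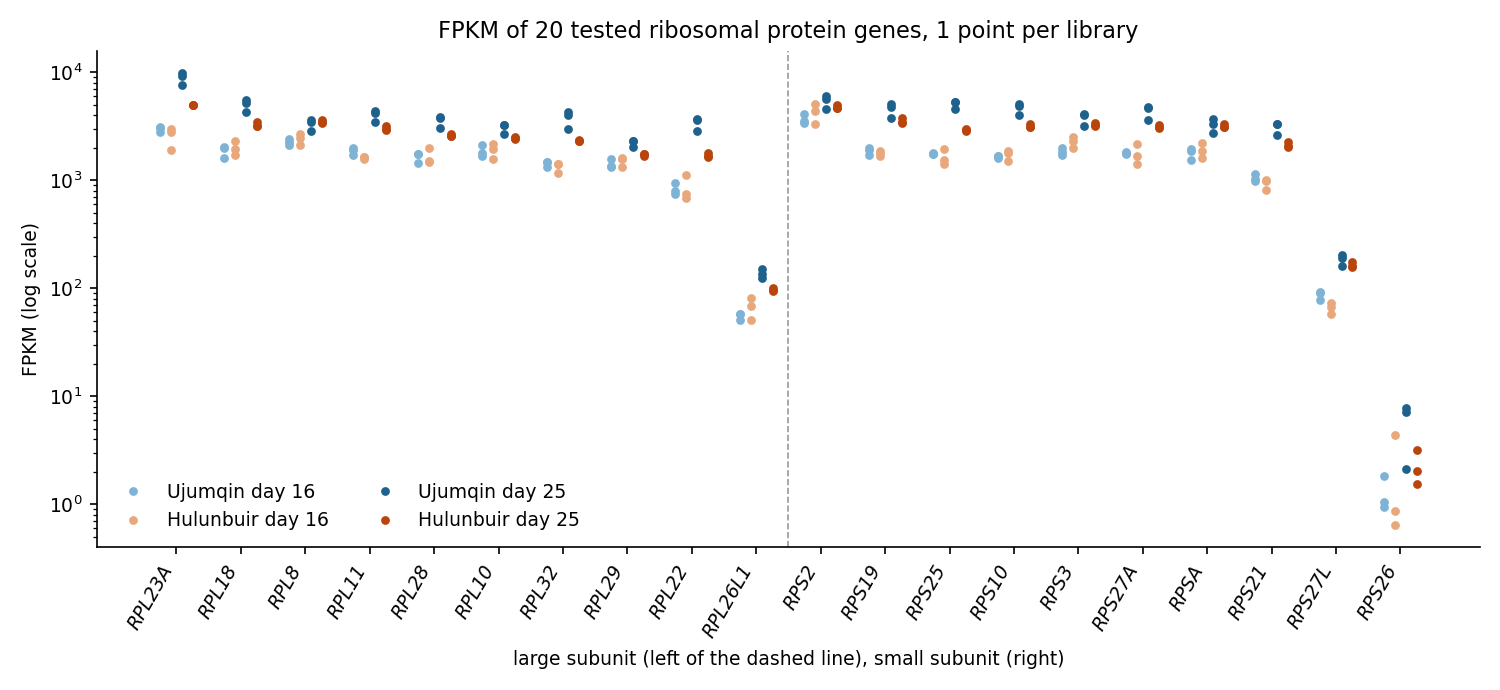
FPKM (log axis) of 20 of the 24 tested ribosomal protein genes, large subunit on the left and small subunit on the right of the dashed line, each ordered by mean level; every point is 1 library and colours mark the 4 groups. The dark blue points of Ujumqin at day 25 are the highest for most genes, and RPS26, RPS27L and RPL26L1 lie below the band of the others.

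The share of all gene counts taken by the 26 genes was larger in every day 25 library than in any day 16 library, and at day 25 it was larger in Ujumqin than in Hulunbuir. At day 16 the Ujumqin values were 2.77%, 2.60% and 2.40% and the Hulunbuir values 2.94%, 2.26% and 2.85%. At day 25 it was 4.86%, 6.28% and 6.10% in Ujumqin and 4.24%, 4.54% and 4.32% in Hulunbuir. The breeds overlapped at day 16 and not at day 25, where the means were 5.74% ± 0.77 (SD, n = 3) and 4.37% ± 0.15 (SD, n = 3). The group means gave a Hulunbuir to Ujumqin ratio of 1.04 at day 16 and 0.760 at day 25, and day 25 to day 16 ratios of 2.22 in Ujumqin and 1.63 in Hulunbuir. With the 41 further genes added, ribosomal protein genes held 6.51% ± 0.42 and 6.69% ± 0.93 of counts at day 16 and 15.0% ± 1.92 and 11.0% ± 0.31 at day 25 (Ujumqin and Hulunbuir, SD, n = 3 each). At day 25 the share of mitochondrial genes was 4.35%, 5.85% and 6.36% in Ujumqin and 3.17%, 2.73% and 3.13% in Hulunbuir, with Ujumqin replicate 1 the lowest of its group in both shares. Of 15 immediate early genes, which tissue dissociation can induce, 10 were lower and 2 higher in Hulunbuir at day 25. Of all tested genes 22.7% were lower and 23.3% higher. The median log2 difference of the 15 was -1.38 at day 25 and -1.27 at day 16, where 14 were negative and 0 were called. Their part in the ribosomal protein result was not tested. A share of reads in bulk RNA does not tell fewer cells with a high level from less RNA per cell.

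**Figure D2:**
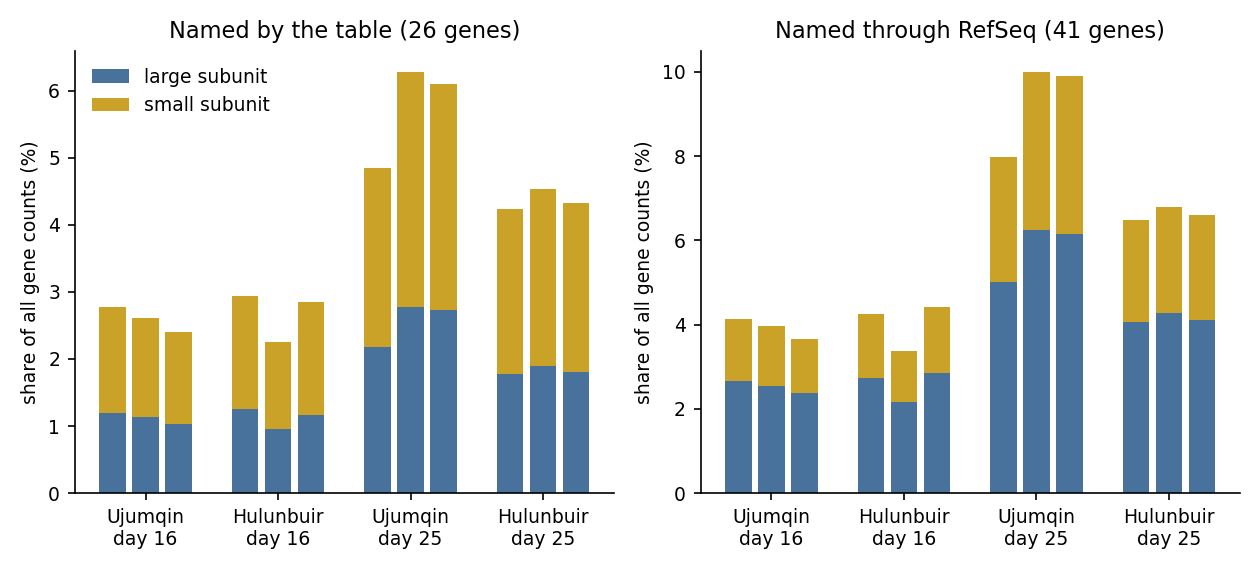
Share of all gene counts (%) held by ribosomal protein genes in each of the 12 libraries, 1 bar per library, split into large and small subunit, for the 26 genes named by the table (left) and the 41 named through RefSeq or as fusions (right). Bars of Ujumqin at day 25 reach 4.86% to 6.28% on the left, above the 4.24% to 4.54% of Hulunbuir.

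Between day 16 and day 25 in Ujumqin all 24 tested genes rose, with a median log2 change of 1.42 and none falling, where 30.7% of all tested genes rose and 32.9% fell (edgeR quasi-likelihood test, Benjamini-Hochberg adjusted p under 0.05) and their overall median was -0.07. RPL22, an RNA-binding large subunit protein (Oar_v3.1, chr12:45246240-45251689), had 752, 786 and 946 FPKM at day 16 and 2840, 3669 and 3587 FPKM at day 25. Its groups lay far apart, a log2 change of 2.17 (SE 0.17, edgeR adjusted p 3.2e-06). RPL23A (chr11:19771126-19774188) went from 3032, 3087 and 2770 FPKM to 7674, 9196 and 9747 FPKM, a log2 change of 1.72 (SE 0.16). Its lowest day 25 library was well above its highest day 16 library. RPS21, RPS25 and RPS10, in this order, rose by 1.69, 1.65 and 1.62 on the log2 scale. RPS26 had the largest fitted change, 2.28 (SE 0.75, edgeR adjusted p 0.0195), at 0.951, 1.05 and 1.82 FPKM against 7.84, 7.22 and 2.11 FPKM, and its call was lost without replicate 1 or 2 of either age. The smallest rises were those of RPL8 at 0.69 (SE 0.16), RPS2 at 0.70 (SE 0.18) and RPL29 at 0.78 (SE 0.14). All 24 genes had deposited FPKM values with no overlap between the ages, against 30.9% of all tested genes that were higher at day 25 in this way and 36.9% that were lower. Of the 41 further genes, 40 rose, with a median of 1.40; the exception was RPL7L1, a relative of RPL7, at -0.12 (SE 0.12, edgeR adjusted p 0.376).

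In Hulunbuir 16 of the 24 genes rose from day 16 to day 25 and none fell, with a median log2 change of 0.62, where 18.9% of all tested genes rose, 21.6% fell and the overall median was -0.04. RPS27L, a p53-inducible relative of RPS27, had 73.3, 57.8 and 66.8 FPKM at day 16 and 160, 157 and 176 FPKM at day 25, a log2 change of 1.16 (SE 0.16, edgeR adjusted p 0.0003). RPS21 went from 981, 810 and 996 FPKM to 2072, 2244 and 2045 FPKM, a log2 change of 1.04 (SE 0.15). The ages did not overlap in either of these small subunit genes. RPL22, RPL23A, RPS19, RPS10 and RPL11 followed at 0.87, 0.82, 0.82, 0.74 and 0.74. Among the 8 genes that did not pass, the most abundant were RPS2 at 0.01 (SE 0.18), RPL8 at 0.38 (SE 0.16), RPS3, a small subunit protein that also repairs DNA, at 0.38 (SE 0.16) and RPL28 at 0.50 (SE 0.19). RPL29 stood at 0.06 (SE 0.14). RPL8, RPS3 and RPL28 passed as risen with DESeq2 (0.41, 0.40 and 0.52) and with library totals alone (0.57, 0.56 and 0.70). RPS2 and RPL29 did not pass in these fits. Leaving out a single Hulunbuir library left 11 to 17 genes risen, with RPSA, RPL26L1 and RPL18 among those that lost their calls. In deposited FPKM 22 of the 24 genes were higher in every day 25 library, against 33.4% of all tested genes; RPS2 and RPS26 overlapped. Of the 41 further genes 25 rose and none fell, with a median of 0.59. When the trend of change with gene length among other genes was removed, 6 of the 24 genes rose, RPL29 fell, and the median was 0.28.

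At day 25, 22 of the 24 genes were lower in Hulunbuir than in Ujumqin and none was higher, with a median log2 difference of -0.77 against 0.03 over all tested genes, of which 22.7% were lower and 23.3% higher. RPL22 had 2840, 3669 and 3587 FPKM in Ujumqin and 1633, 1798 and 1671 FPKM in Hulunbuir. The breeds did not overlap, and RPL22 was 2.49-fold lower in Hulunbuir (log2 -1.32, SE 0.13, edgeR adjusted p 0.00015). RPL23A had 7674, 9196 and 9747 FPKM in Ujumqin and 4931, 4974 and 4961 FPKM in Hulunbuir, a log2 difference of -1.17 (SE 0.12). RPS25, which helps some viral and cellular messengers start translation internally (Oar_v3.1, chr15:29075802-29077550), had 4514, 5283 and 5287 FPKM in Ujumqin and 2857, 2926 and 2953 FPKM in Hulunbuir, a log2 difference of -1.12 (SE 0.11). For both genes the Hulunbuir libraries lay close together and below every Ujumqin library. RPL32 had 2993, 4026 and 4277 FPKM against 2307, 2357 and 2298 FPKM, a log2 difference of -1.03 (SE 0.15), and RPL18 was lower by a log2 difference of -0.95 (SE 0.12). RPS10 and RPS21 were each lower at -0.87 (SE 0.12).

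RPL8 and RPSA did not pass in edgeR at day 25. RPL8, a large subunit protein close to the peptidyl transferase centre (chr9:13276130-13278418), had 2826, 3637 and 3453 FPKM in Ujumqin and 3372, 3614 and 3491 FPKM in Hulunbuir. These values overlap, and the fit gave -0.25 (SE 0.12, edgeR adjusted p 0.126), and 0.07 with library totals alone. With DESeq2 RPL8 passed as lower in Hulunbuir, at -0.28 (DESeq2 adjusted p 0.0489). RPSA, the laminin receptor homologue of the small subunit, overlapped likewise, with 2737, 3689 and 3301 FPKM against 3073, 3325 and 3120 FPKM. Its fitted difference was -0.37 (SE 0.13, edgeR adjusted p 0.0508). With DESeq2 it passed as lower, at -0.39 (DESeq2 adjusted p 0.00711). RPS27L at -0.50 (SE 0.12) and RPS2 at -0.52 (SE 0.13) passed the test although their deposited FPKM overlapped between breeds. With library totals alone they stood at -0.18 and -0.19 and with limma on log2(FPKM + 1) at -0.16 and -0.18, and neither passed in these fits (adjusted p 0.152 to 0.265). RPS27L did not pass with the length trend removed either, at -0.13. RPS26 had the largest fitted difference, -1.63 (SE 0.53, edgeR adjusted p 0.0335), from 7.84, 7.22 and 2.11 FPKM against 3.2, 2.02 and 1.53 FPKM, so its breeds overlap and 1 Ujumqin library lies apart. In deposited FPKM 17 of the 24 genes were lower in every Hulunbuir library, against 13.2% of all tested genes; none was higher in every Hulunbuir library, against 49.1%.

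Scaling bears on the size of the day 25 difference. Deposited FPKM and library totals put the median of all tested genes 0.35 higher in Hulunbuir on the log2 scale, whereas TMM scaling, used for the fitted values, puts it at 0.03. With library totals alone 17 of the 24 genes were lower, with a median of -0.44, and with limma on log2(FPKM + 1) 15 of 24 were lower. In Ujumqin replicate 1 of day 25 the FPKM was the lowest of its group for 23 of the 24 genes; without that library 23 genes passed, RPSA and RPL8 among them and RPS26 not. RPS2 and RPS26 were among the genes that lost their calls when other single day 25 libraries were left out, in each case with 19 or more genes still lower.

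At day 16 no ribosomal protein gene was called between breeds, where 0.0137% of all tested genes were higher and 0.00685% lower in Hulunbuir. None of the 24 genes reached an unadjusted p under 0.05 in edgeR, and DESeq2, limma and a fit over all 12 libraries called 0 of them too. The median log2 difference was -0.06, against 0.01 over all tested genes. RPS27L came nearest, with 91.7, 89.9 and 78.0 FPKM in Ujumqin and 73.3, 57.8 and 66.8 FPKM in Hulunbuir, a log2 difference of -0.47 (SE 0.21, edgeR adjusted p 0.264). Its breeds did not overlap, nor did those of RPL11, with 1974, 1916 and 1708 FPKM against 1626, 1562 and 1643 FPKM (log2 -0.29, SE 0.21). Such separation, lower in Hulunbuir, held for 2 of the 24 genes and for 11.1% of all tested genes. RPL23A differed by -0.30, with bounds of -0.75 and 0.14 at 2 SE, and RPS2 by 0.13 (bounds -0.36 and 0.63). A difference of the size seen in RPL22 at day 25 lies outside its day 16 bounds of -0.46 and 0.35, while smaller differences in either direction were not detectable with this spread. In Hulunbuir replicate 2 of day 16 the FPKM was the lowest of its group for 23 of the 24 genes, and in Ujumqin replicate 3 of day 16 for 20 of the 24.

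**Figure D3:**
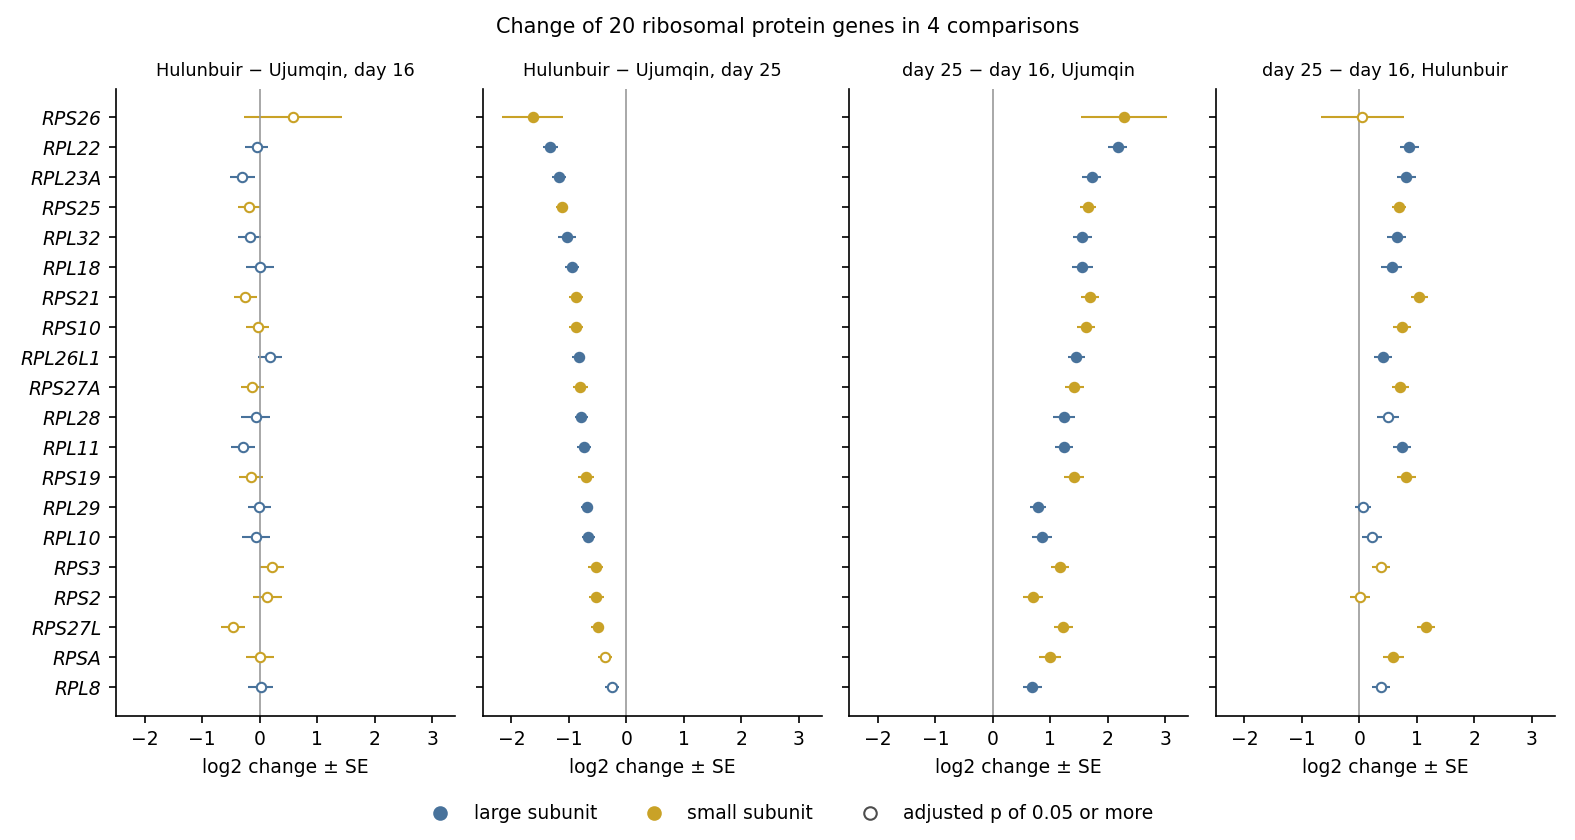
Log2 change ± SE of 20 of the 24 tested ribosomal protein genes in 4 comparisons, ordered by the day 25 breed difference; filled points have an adjusted p under 0.05 and colours mark the subunit. Breed differences scatter around 0 at day 16 and all lie below 0 at day 25 (RPL8 at 0.07 with library totals alone), and age changes are larger in Ujumqin (median 1.42 over all 24 genes) than in Hulunbuir (median 0.62).

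Whether the breeds changed differently with age was tested directly as an interaction, the age change in Hulunbuir minus that in Ujumqin. It passed for 13 of the 24 genes, all negative, with a median of -0.72, where 10.3% of all tested genes passed in this direction and 8.89% in the other. RPL22 had the most negative value of those called and the smallest adjusted p, -1.31 (SE 0.23, edgeR adjusted p 0.00433), from age changes of 2.17 in Ujumqin and 0.87 in Hulunbuir. RPS25 (-0.97, SE 0.19, edgeR adjusted p 0.00665) and RPL26L1 (-1.04, SE 0.21, edgeR adjusted p 0.00729) had the next smallest adjusted p, followed by RPS10, RPL23A and RPL18. RPS27L rose in both breeds, by 1.23 in Ujumqin and 1.16 in Hulunbuir on the log2 scale, with an interaction of -0.07 (SE 0.22, edgeR adjusted p 0.846). The count depended on single libraries: 3 genes passed without Ujumqin replicate 2 or 3 of day 25, 4 without Hulunbuir replicate 1 or 3 of day 25, 6 without its replicate 2, and 8 without Ujumqin replicate 2 of day 16. With library totals alone 3 genes passed, and with limma on log2(FPKM + 1) 2 passed. RPL22 passed in each of these settings.

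Genes of both subunits changed in the same direction. In Ujumqin the median age change was 1.45 for the 11 tested large subunit genes and 1.41 for the 13 small subunit genes, and in Hulunbuir it was 0.56 and 0.69. At day 25, 10 of 11 large subunit genes and 12 of 13 small subunit genes were lower in Hulunbuir, with medians of -0.82 and -0.72. The summed FPKM of the large subunit genes divided by that of the small subunit genes was 0.886, 0.867 and 0.886 in Ujumqin and 0.8, 0.789 and 0.795 in Hulunbuir at day 25, with no overlap. At day 16 the ratio was 0.862, 0.866 and 0.834 in Ujumqin and 0.865, 0.824 and 0.788 in Hulunbuir, which overlap. RPL23A is the largest term of this sum, and without it the day 25 ratios still did not overlap, at 0.695 to 0.700 and 0.660 to 0.663. In the 41 further genes the ratio at day 25 was 1.37, 1.33 and 1.32 in Ujumqin and 1.33, 1.34 and 1.31 in Hulunbuir. Among these, 24 of 26 large subunit genes and 14 of 15 small subunit genes were lower in Hulunbuir, with medians of -0.89 and -0.84. The ratios of the second set thus overlapped between breeds, while over all named genes together they did not, at 1.15, 1.11 and 1.12 in Ujumqin and 1.08, 1.08 and 1.07 in Hulunbuir.

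Named functional groups within the ribosome gave values in the same range. Of the stalk, the flexible arm that recruits elongation factors, RPLP1 (-0.86, SE 0.12) and RPLP2 (-0.66, SE 0.13) were lower in Hulunbuir at day 25, RPLP2 losing its call with limma on log2(FPKM + 1) (-0.32, adjusted p 0.0632). RPLP0, the base of the stalk, had 3518, 4557 and 4246 FPKM against 4278, 4630 and 4382 FPKM and did not pass (-0.22, SE 0.13, edgeR adjusted p 0.174, and 0.10 with library totals alone). RPL5 and RPL11 form the 5S particle with 5S ribosomal RNA and, when free, bind the p53 regulator MDM2; they were lower by -1.14 (SE 0.13) and -0.74 (SE 0.12). RPL24 is the gene of the mouse Belly spot and tail allele, in which lower dosage gives a kinked tail. It had 4674, 5696 and 5484 FPKM in Ujumqin and 3109, 3318 and 3171 FPKM in Hulunbuir at day 25, a log2 difference of -1.06 (SE 0.11, edgeR adjusted p 0.0002), and at day 16 its breeds overlapped. RPL38, whose loss gives the mouse Tail short allele, was not analysed here. RPS6, the substrate of the S6 kinases (-0.94, SE 0.11), RPS19 (-0.70, SE 0.14) and RPS27A, made as a fusion with ubiquitin (-0.80, SE 0.13), were lower as well. Of the genes mutated in Diamond-Blackfan anaemia, an inherited failure of red cell production, 12 were tested. All 12 were lower at day 25, with a median of -0.90, beside 22.7% of all tested genes. Of all 65 tested named ribosomal protein genes, 60 were lower, with a median of -0.82, so the anaemia genes did not stand apart. RPS26 is among the 12 anaemia genes. Its call was lost with library totals (edgeR adjusted p 0.0711) and with limma (adjusted p 0.106). It was also lost without replicate 1 or 2 of Ujumqin or replicate 2 or 3 of Hulunbuir.

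Of the tested relatives whose parent gene was also tested, only RPL7L1 went the other way from its parent at day 25. RPL26 and RPS27, the parents of RPL26L1 and RPS27L, were not among the named genes, so these pairs could not be compared. RPL26L1 was lower at day 25 by -0.83 (SE 0.11), and RPL22L1, which replaces RPL22 in some cells, by -1.55 (SE 0.16) beside -1.32 for RPL22. RPL36AL (-0.94, SE 0.12) and RPL36A (-1.17, SE 0.11) were lower too, as were the parents RPL10 (-0.66, SE 0.11), RPL3 (-0.62, SE 0.13) and RPL7 (-0.99, SE 0.11). With limma on log2(FPKM + 1) RPL3 stood at -0.27 and did not pass (adjusted p 0.112). RPL7L1 was the exception among all named genes: it had 129, 134 and 138 FPKM in Ujumqin and 206, 214 and 208 FPKM in Hulunbuir, a log2 difference of 0.32 (SE 0.08, edgeR adjusted p 0.0119). It lost its call in the fit over all 12 libraries (0.28, edgeR adjusted p 0.132). The largest difference of the second set was that of RPL27, with 603, 498 and 453 FPKM in Ujumqin against 133, 123 and 105 FPKM in Hulunbuir at day 25 (log2 -2.42, SE 0.11, edgeR adjusted p 4.1e-06). RPL27 stood at a mean of 229 FPKM, well under its fellow subunit proteins, and at day 16 its libraries spread from 62.2 to 258 FPKM. RPL31 was lower by -1.22 (SE 0.11).

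Other genes of the translation apparatus were described by lists, to be read against the 23.3% of all tested genes that were higher and the 22.7% that were lower in Hulunbuir at day 25. Of 19 further TOP messengers and elongation factors, some of which are also in the second set of ribosomal protein genes, 14 were lower and 1 higher in Hulunbuir at day 25, with a median of -0.37. NACA, a chaperone of nascent chains, was lower by -1.14 (SE 0.13) and NAP1L1, a histone chaperone, by -1.05 (SE 0.09), while EEF2, the translocation factor, was higher by 0.23 (SE 0.08). Of 21 initiation factors 5 were higher and 4 lower, with a median of 0.04, shares near those of all tested genes; the scaffold subunit EIF3B was higher by 0.50 (SE 0.08) and the subunit joining factor EIF5B lower at -1.09 (SE 0.16). Of 72 ribosome assembly genes 16 were higher and 25 lower, with a median of -0.02. Among them NPM1, a nucleolar chaperone of assembling ribosomes, had a mean of 475 ± 31.7 FPKM in Ujumqin and 146 ± 11.5 FPKM in Hulunbuir (SD, n = 3 each), a log2 difference of -2.03 (SE 0.10). Of 18 genes that control ribosomal protein synthesis 10 were higher and 4 lower, with a median of 0.58. Of these, MYC, a transcription factor that drives ribosome production, was higher by 1.02 (SE 0.13), its relative MYCN by 1.60 (SE 0.18), and TSC2, a brake on mTOR, was lower by -0.48 (SE 0.07). Other brakes on this pathway were higher: EIF4EBP2, which holds back cap-dependent initiation, by 1.10 (SE 0.20), LARP1, which binds TOP messengers, by 0.95 (SE 0.13) and TSC1, the partner of TSC2, by 0.69 (SE 0.19). The mTOR activator RHEB (-0.48, SE 0.08) and EIF4EBP1 (-0.36, SE 0.08) were lower. Of 72 mitochondrial ribosomal protein genes, which serve a separate ribosome, 33 were lower and 3 higher, with a median of -0.30, and of 36 proteasome genes 13 were lower and 5 higher, with a median of -0.15. With age in Ujumqin the 72 assembly genes split into 23 that rose and 28 that fell, and in Hulunbuir into 2 and 30. Of 31 respiratory complex I genes 25 rose and 2 fell in Ujumqin, with a median of 0.95 (ribosomal protein genes 1.42). In Hulunbuir 20 rose and 0 fell, with a median of 0.69 (ribosomal protein genes 0.62). Mitochondrial ribosomal protein and proteasome medians were 0.67 and 0.48 in Ujumqin and 0.41 and 0.28 in Hulunbuir. Initiation factor and control gene medians were -0.25 and -1.03 in Ujumqin and -0.18 and -0.48 in Hulunbuir. Of all tested genes 30.7% rose and 32.9% fell in Ujumqin, and 18.9% rose and 21.6% fell in Hulunbuir. LARP1 fell with age by 2.79 (SE 0.20) in Ujumqin and by 1.45 (SE 0.19) in Hulunbuir on the log2 scale.

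**Figure D4:**
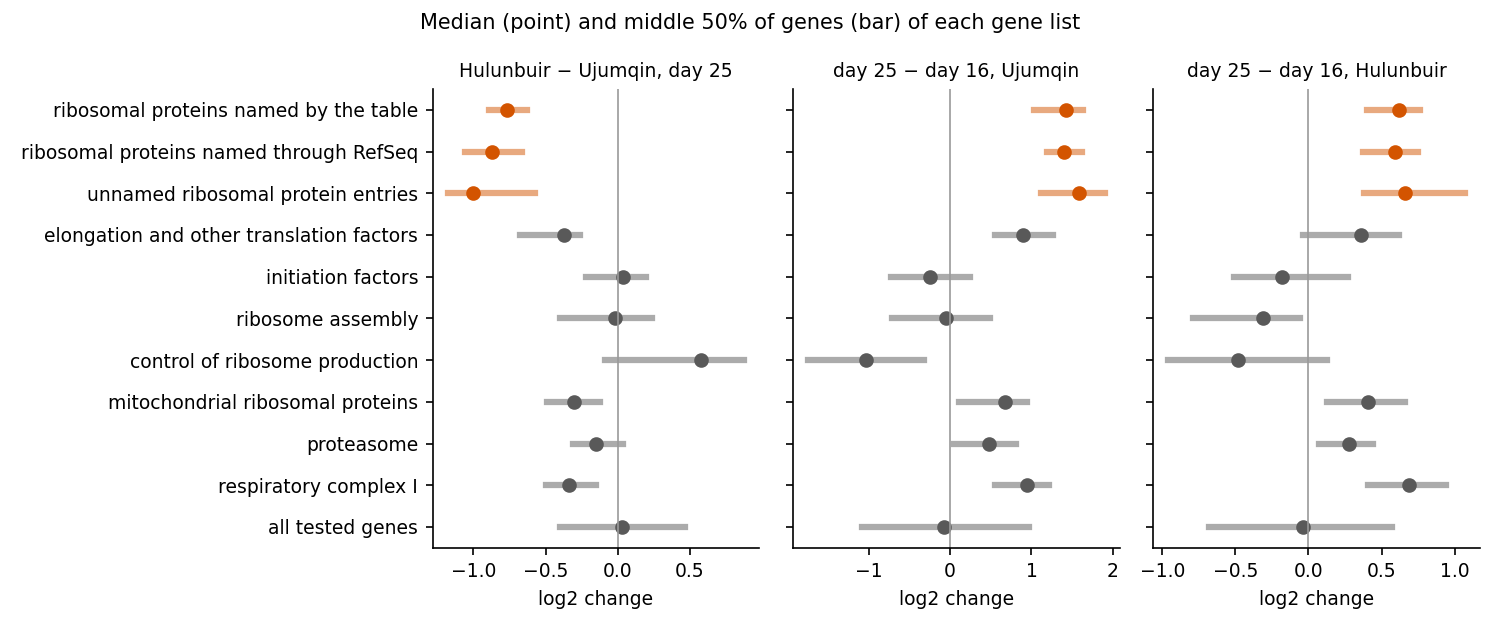
Median log2 change (point) and the range of the middle 50% of genes (bar) for ribosomal protein genes (orange) and other lists (grey) in 3 comparisons; the bottom line is all tested genes. At day 25 the medians of the ribosomal protein lists lie at -0.77 and below, those of the other lists at -0.37 and above.

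Gene length moved with these results. Other genes with an implied length of 0.3 to 0.6 kb had a median of -0.26 between breeds at day 25, 0.64 with age in Ujumqin and 0.49 with age in Hulunbuir, and the 16 ribosomal protein genes in that class had -0.81, 1.51 and 0.70. Across the 24 genes the Spearman correlation of length with the day 25 breed difference was 0.58, a description over genes that share libraries. With the length trend of the other genes removed, 20 of the 24 genes stayed lower in Hulunbuir at day 25, with a median of -0.56, and 22 rose with age in Ujumqin, with a median of 0.94. What sets the length trend was not tested.

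**Figure D5:**
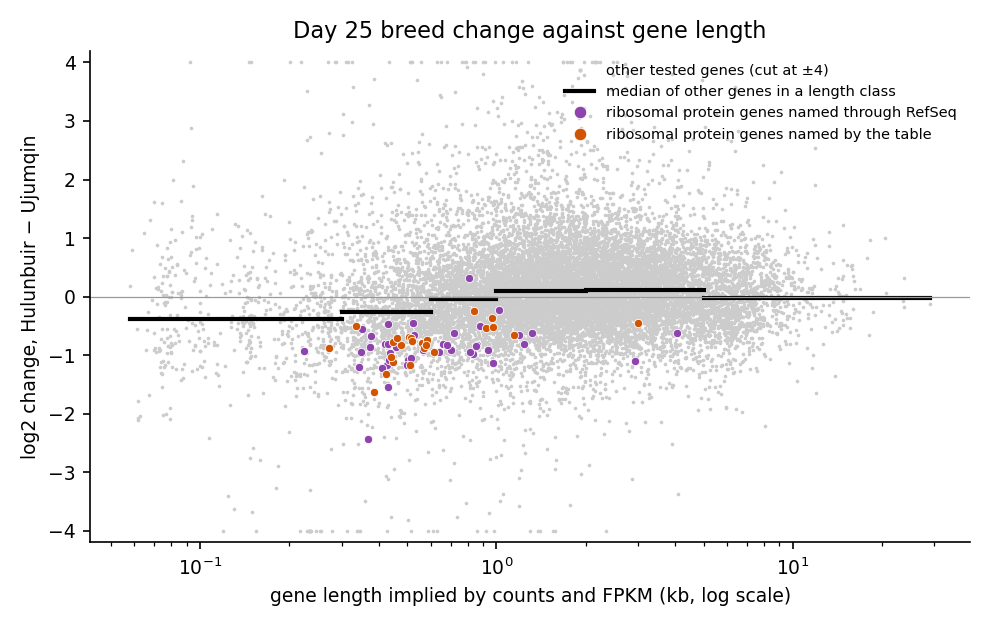
Log2 difference between breeds at day 25 against gene length implied by counts and FPKM (kb, log axis); grey points are other tested genes, black lines their median in each length class, orange and purple points ribosomal protein genes. The ribosomal protein genes of 0.3 to 0.6 kb have a median of -0.81, below the black line at -0.26.

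Marker levels of embryo tissues also differed between the groups. At day 25 the summed FPKM of 14 erythroid markers was 2005 to 2518 in Ujumqin and 16478 to 19409 in Hulunbuir, that of 14 liver and yolk sac markers 5345 to 8206 and 20657 to 22166, and that of 12 mesenchyme and matrix markers 8926 to 16307 and 4083 to 4200. Neural markers stood at 388 to 445 and 584 to 589 FPKM. Muscle and heart markers stood at 352 to 480 and 483 to 520, and leukocyte markers at 36.6 to 41.9 and 28.1 to 32.0. Single markers did not all follow these sums. Of 6 tested leukocyte markers, 4 had a positive and 2 a negative log2 difference, with a median of 1.42. Of 6 tested muscle and heart markers, 3 were positive and 3 negative, with a median of 0.23. With age, 9 epithelial and trophoblast markers stood at 1814 to 3870 FPKM at day 16 and 296 to 578 at day 25 in Ujumqin, and at 1767 to 5739 and 374 to 405 in Hulunbuir. The liver and yolk sac markers were at 25866 to 63507 FPKM in Ujumqin and 4559 to 13937 in Hulunbuir at day 16, and the erythroid markers at 952 to 4275 and 88.7 to 177. Endometrial markers summed to 1.49 to 28.4 FPKM over all groups, with PGR at 0 counts in every library. With mitochondrial, erythroid and liver genes taken out of the total, the 26 genes' share at day 25 was 0.767 times that of Ujumqin in Hulunbuir, beside 0.760 with them. Only mitochondrial genes and the listed erythroid, liver and yolk sac markers were taken out, and other reads of those cells stayed in. The ratio therefore cannot measure the part of differing cell composition in the ribosomal protein result, which was not tested.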

How the data were processed

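Bulk RNA-seq of 12 sheep embryo libraries was used. Raw counts and FPKM per gene were deposited by the authors in 1 table; FPKM is written as 0.0001 where the count is 0. Per the submitters' processing notes, reads were trimmed with cutadapt 1.9, checked with FastQC and placed on Oar_v3.1; for the aligner, the counting program and its use of strand, the sources used here give no name. Deposited counts were tested with edgeR 4.0.16 (quasi-likelihood, TMM, R 4.3.3) on 14595 genes with at least 1 FPKM in 3 or more libraries, with Benjamini-Hochberg adjustment over all of them and a threshold of 0.05. Breed comparisons used the 6 libraries of 1 age; age comparisons and the interaction used all 12. Each SE was obtained as the absolute log2 change over root F. Fitted values use TMM scaling and deposited FPKM do not. DESeq2 1.42.0 and limma 3.58.1 on log2(FPKM + 1) or log2(FPKM + 0.1) were alternatives. Gene length was implied by counts and FPKM. The tests were checked on simulated data, where the share of false calls stayed under the threshold for breeds at day 16 and exceeded it in the other 4 comparisons, so adjusted p-values near the threshold there may be too small. Totals were 30464606 to 55455815 counts.

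The members and lists were chosen with earlier results of these data known. Genes were named by a rule: up to 8 called genes by size of change in each direction and comparison, up to 4 uncalled genes by mean FPKM, the 5 highest and 5 lowest by mean FPKM, up to 6 interaction calls, fixed sets, and up to 3 genes per direction in other lists. RPL27, RPL31 and RPS27L at day 25 were named after their values were seen. Replicate numbers paired the breeds at day 16 by their data: deviations of same-numbered libraries correlated at 0.20, 0.32 and 0.38. Values of some single genes are not reported here; counts, medians and sums over the set include them. Sequences of the genes were not used here.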

Additional observations from a re-analysis of the deposited data

Results flagged for a closer look

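For 13 ribosomal protein genes the breed difference changed between day 16 and day 25 by a test of that change itself (edgeR interaction term over the 12 libraries, adjusted over all tested genes). All 13 values were negative, which means a lower Hulunbuir level relative to Ujumqin at day 25 than at day 16. The values of 11 are given here. RPL22 had -1.31, RPL26L1 -1.04, RPL18 -1.0 and RPS25 -0.97. RPL23A had -0.91, RPL32 -0.90 and RPS10 -0.88. RPS3 had -0.79, RPL29 -0.71, RPS27A -0.71 and RPS21 -0.66. Among these the edgeR adjusted p was smallest for RPL22 (0.00433) and largest for RPS21 (0.0479). Of all tested genes 10.3% were called in this direction and 8.89% in the other. With library totals alone 10 of the 13 calls were lost, and with limma on log2(FPKM + 1) 11 were lost. RPS3, RPL29, RPS27A and RPS21 were among those lost in both.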

How the results depend on the processing

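Breed calls at day 25 and age calls kept their direction in every alternative run. RPL29, uncalled with age in Hulunbuir with TMM scaling alone (0.06), fell there when the length trend was removed (-0.36). Removing the length trend, chosen after seeing the data, gave a median of 0.09 between breeds at day 16, 0.94 with age in Ujumqin and 0.28 with age in Hulunbuir, where 7 genes passed. The day 25 breed median was -0.44 with library totals alone and -0.43 with limma at either pseudocount. The Hulunbuir age median was 0.81 with library totals, 0.72 with upper quartile factors and 0.79 with limma at either pseudocount. Interaction calls numbered 3 with library totals, 7 without the filter, 7 with voom, and 2 and 1 with limma at pseudocounts of 1 and 0.1. As a share of summed FPKM the age ratio was 1.79 in Ujumqin and 1.33 in Hulunbuir.

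Other uncalled genes reported here changed sign as follows. At day 25 between breeds, RPL8 was 0.07 with library totals and 0.09 with limma at either pseudocount, and RPLP0 0.10 and 0.12. At day 16, RPS2 ranged from -0.03 (without Hulunbuir replicate 1) to 0.23 (without Ujumqin replicate 1). With age in Hulunbuir, RPS2 was -0.01 with the strict filter (10 FPKM), -0.12 without the length trend, -0.07 without day 16 replicate 2 or 3, -0.03 without day 25 replicate 2 and 0.16 without day 16 replicate 1. Causes were not tested.

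Leaving out 1 library at a time left 0 calls between breeds at day 16, 19 to 23 at day 25, 23 to 24 with age in Ujumqin, 11 to 17 with age in Hulunbuir and 3 to 15 in the interaction. Medians ranged from -0.16 to 0.0, -0.91 to -0.67, 1.31 to 1.55 and 0.54 to 0.69 in the first 4 of these. Ratios of the share of counts ranged from 0.986 to 1.12, 0.706 to 0.797, 2.11 to 2.39 and 1.51 to 1.71.

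With a replicate block, 0 genes passed between breeds at day 16 (395 of all tested genes, against 3 without it), 23 at day 25 (RPSA added), 24 with age in Ujumqin, 15 in Hulunbuir (RPL26L1 lost) and 9 in the interaction. The labels do not say what libraries of the same number share. Outside day 16 same-number correlations were 0.05, 0.07 and 0.04 between breeds at day 25. Between ages they were -0.07, 0.13 and -0.03 in Ujumqin and -0.10, 0.02 and 0.00 in Hulunbuir. At both ages each of the 3 Hulunbuir libraries correlated best with the Ujumqin library of its own number.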
